A study of Mus musculus with 6 samples.

Results

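The genes described here are 9 protein-coding genes whose transcripts had much lower counts in Alkbh1-/- than in wild type (WT) pachytene spermatocytes: Pla2g4a, Serpina3a, Trpv1, Frmpd1, Chst10, Defb45, Ppp1r3c, Snx33 and Sfxn3. They were picked for that difference, from a table of 21310 Ensembl genes, and all 9 symbols matched an identifier. The mRNA of mouse testis pachytene cells, germ cells in the long middle stage of meiotic prophase, was sequenced in 1 Alkbh1-/- library and 1 WT library. The Alkbh1-/- line carries a targeted deletion of exon 6 and was backcrossed to C57/BL6, while no age, number of animals or allele is given in the labels for the WT mice. RNA over 200 nt, 1.6 µg from Alkbh1-/- and 1 µg from WT, was selected on oligo(dT) and read as 75 bp paired ends. The libraries held 10229260 counts in Alkbh1-/- and 8222671 in WT. Counts were scaled to CPM, counts scaled to a common library total. Each genotype had 1 library, so nothing was tested across animals, and a difference of genotype cannot be told apart from a difference between preparations.

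Alkbh1 belongs to the AlkB family of iron-dependent dioxygenases, and in mammals it acts on methylated tRNA among other substrates. The 9 genes belong to unrelated families. Pla2g4a encodes the calcium-activated cytosolic phospholipase that frees arachidonic acid for prostaglandin and leukotriene synthesis, and Serpina3a a protease inhibitor of the serpin superfamily. Trpv1 is the cation channel opened by heat and capsaicin, best known from sensory neurons and also reported in mouse male germ cells. Chst10 adds sulfate to glucuronic acid to form the HNK-1 carbohydrate epitope. Defb45 is a beta-defensin, one of the small cationic secreted peptides of which many are made in the male tract. Ppp1r3c, also called PTG, brings protein phosphatase 1 to glycogen, and Frmpd1 is a FERM and PDZ domain protein that binds the G protein regulator Gpsm1. Snx33 is an SH3 and BAR domain sorting nexin of the Snx9 type, which works in endocytosis, and Sfxn3 is a sideroflexin, a mitochondrial carrier family that moves serine. The table counts transcripts of all cells in each preparation together, so it assigns none of the 9 to a testis cell type, and fewer cells of a type cannot be told apart from less RNA per cell.

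The 9 genes lay at the low end of all measured genes by the choice that defined them. A floor of 5 CPM in either library left 12189 genes. By the ratio of CPM, 450 of them (3.69%) reached a 2-fold lower value in Alkbh1-/- and 321 (2.63%) a 2-fold higher one. Among the 7949 genes whose higher value lay between 5 and 60 CPM, the range of the 9, these shares were 4.6% and 3.71%. All 9 were past 2-fold, which repeats how they were picked. With a pseudocount of 5 CPM in the ratio 8 were, and Ppp1r3c, at a log2 difference of -0.95, was not. All 9 reached 5 CPM in WT but 4 did so in Alkbh1-/-, so the other 5 passed the floor only through WT. At a floor of 1 CPM the same counts over all genes were 742 lower and 932 higher. The targeted gene, Alkbh1, had 20.2 CPM in Alkbh1-/- and 21.0 CPM in WT, with a ratio of 0.962 and an exact 95% interval from 0.782 to 1.18. Reads from the remaining exons enter this count, which leaves the deletion unchecked.

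Pla2g4a had the largest difference of the 9, with 9 counts in Alkbh1-/- (exact 95% Poisson interval 4.12 to 17.1) and 65 in WT (50.2 to 82.8). Scaled, these were 0.871 CPM in Alkbh1-/- and 7.99 CPM in WT, 9.18-fold lower (Clopper-Pearson interval 4.55 to 21.0). Both counts are small, and the interval is the widest of the set. Intervals here address counting error only, with 1 library per genotype. Reads copied by PCR are not independent molecules, so the intervals may be too narrow even for that. For genes picked by their difference they are a description and no test.

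The other enzyme of the set, Chst10, had 21 counts (2.03 CPM) in Alkbh1-/- and 74 counts (9.10 CPM) in WT, 4.48-fold lower (2.73 to 7.66). Defb45 happened to have the same pair of counts as Chst10, 21 in Alkbh1-/- and 74 in WT. Ppp1r3c had 18 counts (1.74 CPM) in Alkbh1-/- and 65 counts (7.99 CPM) in WT, 4.59-fold lower (2.69 to 8.22). Together with Pla2g4a, these 4 genes had under 100 counts in either library, and their intervals are the widest of the set.

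Trpv1, the cation channel, had 33 counts (3.19 CPM) in Alkbh1-/- and 109 counts (13.4 CPM) in WT, 4.20-fold lower (2.82 to 6.40). Serpina3a, the serpin, had the most counts of the 9, not corrected for transcript length, with 145 (14.02 CPM) in Alkbh1-/- and 414 (50.9 CPM) in WT, 3.63-fold lower (2.996 to 4.41). Serpina3a lies on chromosome 12, as does Alkbh1, and the remaining 8 lie on other chromosomes. Reads of Serpina3a may be shared with close copies in the Serpina3 cluster, so its count is uncertain to that extent.

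Frmpd1, the Gpsm1-binding protein, had 88 counts (8.51 CPM) in Alkbh1-/- and 250 counts (30.7 CPM) in WT, 3.61-fold lower (2.82 to 4.66). Snx33, the sorting nexin, had 118 counts (11.4 CPM) in Alkbh1-/- and 323 counts (39.7 CPM) in WT, 3.48-fold lower (2.81 to 4.33). Sfxn3, the sideroflexin, had 95 counts (9.19 CPM) in Alkbh1-/- and 260 counts (32.0 CPM) in WT, 3.48-fold lower (2.74 to 4.45). For all 9 genes the WT count lay above the upper Poisson limit of the Alkbh1-/- count. Their choice favours this, and the counts are not scaled for depth, so it is a description and no test. The fold intervals of the 8 genes other than Pla2g4a all overlapped each other, so their order is not resolved by the counts. The interval of Pla2g4a, 4.55 to 21.0, overlapped those of Trpv1, Frmpd1, Chst10, Defb45 and Ppp1r3c. It lay above those of Serpina3a, Snx33 and Sfxn3. These are the values by which the 9 were picked, so Pla2g4a is not set apart by a test.

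**Figure D1:**
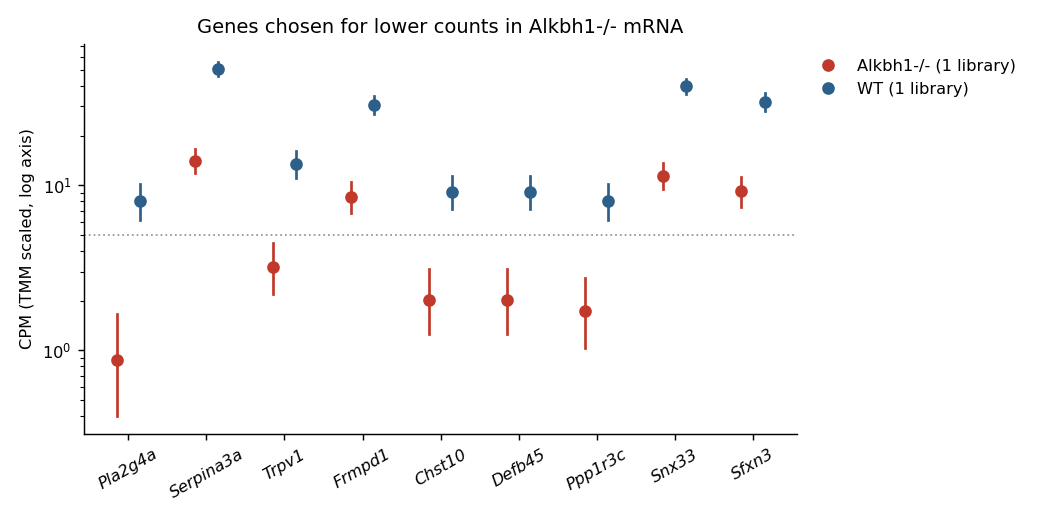
CPM (log axis) of each of the 9 genes in Alkbh1-/- (red, left) and WT (blue, right), 1 library each, with exact 95% Poisson intervals of the counts as bars and the floor of 5 CPM dotted. Every red point lies below its blue point, from 0.871 against 7.99 CPM for Pla2g4a to 14.02 against 50.9 CPM for Serpina3a.

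Stretches of 250 bases before the RefSeq gene start were examined for the 9 genes, all of which are in the promoter table (GRCm38.p6, 10 windows, since Pla2g4a has a second start). Promoters are shown for Serpina3a, for the divergent neighbours Defb45 and Defb36, a relative, and for Chst10 and Sfxn3, which hold a SOX motif. Capitals mark matches, on either strand, to the SOX motifs AACAAT and ACAAAG, the GATA motif AGATAA, the Nr5a1 motif CAAGGTCA and the TATA box TATAAA. The regions are chr12:104112474-104112723 (plus strand), chr2:152596486-152596735 (minus), chr2:152604077-152604326 (plus), chr1:38898161-38898410 (minus) and chr19:45047326-45047575 (plus).
Serpina3a: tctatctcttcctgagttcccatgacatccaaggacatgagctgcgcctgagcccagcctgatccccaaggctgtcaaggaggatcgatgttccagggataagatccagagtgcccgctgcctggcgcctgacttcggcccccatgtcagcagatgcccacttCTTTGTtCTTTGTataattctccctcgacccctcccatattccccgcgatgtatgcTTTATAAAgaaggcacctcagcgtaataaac
Defb45: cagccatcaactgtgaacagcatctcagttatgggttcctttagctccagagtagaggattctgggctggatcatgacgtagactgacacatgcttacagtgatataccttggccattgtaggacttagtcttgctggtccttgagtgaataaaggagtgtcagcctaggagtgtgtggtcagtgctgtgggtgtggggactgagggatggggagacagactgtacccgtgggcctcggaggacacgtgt
Defb36: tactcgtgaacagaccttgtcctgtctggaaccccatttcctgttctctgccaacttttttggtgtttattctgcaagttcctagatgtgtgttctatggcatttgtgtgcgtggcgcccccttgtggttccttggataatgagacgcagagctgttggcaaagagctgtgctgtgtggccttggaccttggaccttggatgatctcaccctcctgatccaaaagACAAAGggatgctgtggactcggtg
Chst10: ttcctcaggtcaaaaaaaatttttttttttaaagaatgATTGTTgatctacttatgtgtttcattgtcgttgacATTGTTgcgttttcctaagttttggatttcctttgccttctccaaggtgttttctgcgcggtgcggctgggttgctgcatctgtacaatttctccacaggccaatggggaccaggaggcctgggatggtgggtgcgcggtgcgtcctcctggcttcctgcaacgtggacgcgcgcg
Sfxn3: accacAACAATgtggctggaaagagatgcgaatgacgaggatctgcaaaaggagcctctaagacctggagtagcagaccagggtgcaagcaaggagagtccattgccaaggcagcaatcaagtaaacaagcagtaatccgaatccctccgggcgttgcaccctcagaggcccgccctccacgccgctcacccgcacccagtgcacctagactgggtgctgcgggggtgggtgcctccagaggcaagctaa

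Serpina3a had TATAAA 29 bases before its start, overlapping the same motif on the other strand at 31, and ACAAAG on the other strand at 87 and 80. Chst10 had AACAAT on the other strand at 212 and 176, and Sfxn3 had it at 245. Defb36 had ACAAAG at 25, and Defb45 had none of the 5 motifs. Over the 10 windows, AACAAT was in 2, ACAAAG in 1, TATAAA in 3, and AGATAA and CAAGGTCA in 0. Of all 32851 promoters in the table, 9.42% held AACAAT, 16.5% ACAAAG, 12.4% TATAAA, 9.99% AGATAA and 1.33% CAAGGTCA. A match is letters only. Other spellings of these motifs were not searched, and windows of this length without a match say nothing about a factor. The windows of the 9 also ranged widely in base composition, with 84.4% G and C for Frmpd1, 64.4% for Ppp1r3c and 43.2% for the first Pla2g4a start, beside a median of 52.4% over all promoters.

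On the scale log2((Alkbh1-/- + 1)/(WT + 1)) of CPM, which understates the differences of low genes, the 9 ran from -2.26 for Pla2g4a to -1.69 for Sfxn3. Gm3880 (-1.77), Etd (-1.75) and Sox9 (-1.73) lay within the same span and are not of the 9. The first gene beyond Sfxn3 was Atp2b3, a plasma membrane calcium pump, with a log2 difference of -1.68. Nr0b1 (-1.66), an orphan nuclear receptor present in Sertoli cells, and Trim47 (-1.66), a tripartite motif protein, came next. The 20 lowest genes were completed by the kinase Wnk3 (-1.64), Sh2d4a (-1.62), 4933402E13Rik (-1.62), the small heat shock protein gene Hspb1 (-1.61) and the netrin gene Ntn4 (-1.57). No gap separates the 9 from these neighbours in rank, apart from that between Pla2g4a and the next gene, Serpina3a (-1.79).

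**Figure D2:**
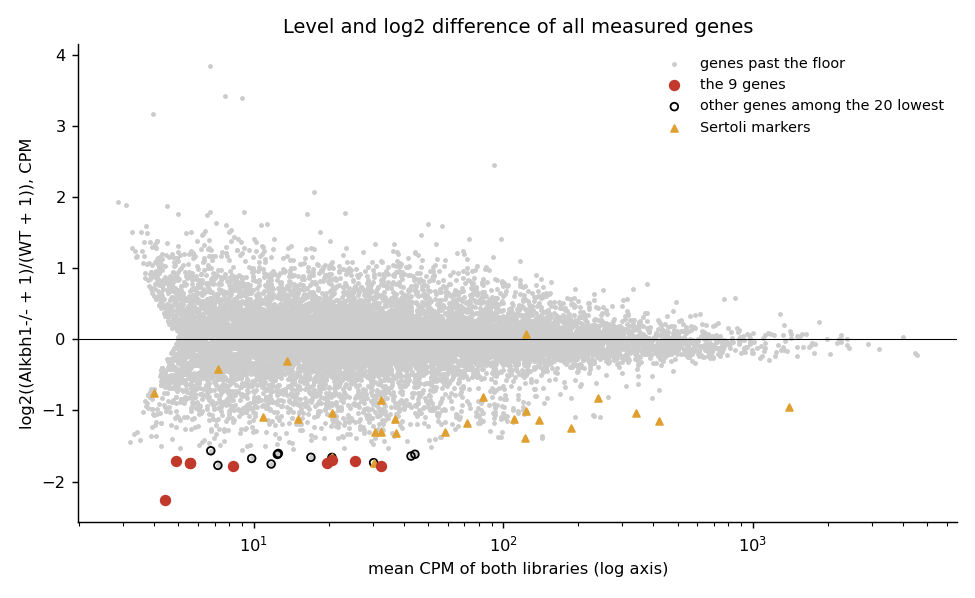
Mean CPM of both libraries (log axis) against log2((Alkbh1-/- + 1)/(WT + 1)) for the 12189 genes past the floor, with the 9 genes (red), the other genes among the 20 lowest (open circles) and Sertoli markers (triangles). The red points lie at -1.69 or below, and Sox9, at -1.73, is both a triangle and an open circle among them.

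The genes most like each of the 9 in level were sought by distance over log2(CPM + 1) in the 2 libraries, not corrected for transcript length, which is a description of 2 values per gene. Sfxn3 lay nearest to Nr0b1 (distance 0.0277), which had 97 counts in Alkbh1-/- and 259 in WT. Frmpd1 also lay nearest to Nr0b1 (0.136), and Serpina3a nearest to Sox9 (0.124), the Sertoli transcription factor, with 139 counts in Alkbh1-/- and 383 in WT. Chst10, Defb45 and Ppp1r3c all lay nearest to Cttnbp2 (0.173, 0.173 and 0.190), a cortactin-binding protein gene with 22 counts in Alkbh1-/- and 65 in WT. Snx33 lay nearest to Cited2 (0.191), Trpv1 to Xylb (0.235) and Pla2g4a to the Wnt receptor gene Fzd1 (0.591). The second nearest were Tomm20l for Serpina3a, Mid1ip1 for Trpv1, Trim47 for Frmpd1, Dnmt3c for Chst10 and Defb45, Fzd1 for Ppp1r3c, Slc25a45 for Snx33, Sox4 for Sfxn3 and Abracl for Pla2g4a. These are the genes with like values in both libraries, and 2 libraries cannot tell more than that.

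Relatives of the 9 were examined family by family, leaving out the 9 themselves. Of 136 relatives listed, 98 were in the table with a symbol and 35 reached 5 CPM in at least 1 library. In Alkbh1-/-, 8 of these 35 (22.9%) were lower by 2-fold or more and 3 (8.57%) were higher by as much, beside 3.69% and 2.63% of all genes. Their median log2 difference was -0.10, beside -0.02 over all genes. The lower relatives were Serpina5, Serpina3b, Defb36, Defb19, Ppp1r3e, Sfxn1, Snx7 and Snx21. The higher ones were Pla2g4d, Chst8 and Chst5. Serpina3b, Ppp1r3e and Sfxn1 reached the floor in WT only, and Pla2g4d, Chst8 and Chst5 in Alkbh1-/- only, so for these the floor favoured the direction seen. The counts depend on low values: with a pseudocount of 5 CPM 3 relatives were lower and 1 higher, and with no floor 16 were lower and 22 higher.

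Among beta-defensins, Defb36 had 196 counts (19.0 CPM) in Alkbh1-/- and 385 counts (47.3 CPM) in WT, 2.50-fold lower (interval 2.10 to 2.98). Defb19, which mouse Sertoli cells are known to express, had 812 counts (78.5 CPM) in Alkbh1-/- and 1336 counts (164 CPM) in WT, 2.09-fold lower (1.91 to 2.28). These were the only 2 of the 21 matched relatives of Defb45 past the floor, and both lie next to it on chromosome 2. The other 19 stayed below 5 CPM in both libraries, Defb23 among them with 32 counts in Alkbh1-/- and 12 in WT, and Defb30 with 21 and 17 counts in Alkbh1-/- and WT.

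Among A-clade serpins, Serpina5, the protein C inhibitor whose loss makes male mice infertile, had 619 counts (59.9 CPM) in Alkbh1-/- and 1025 counts (126 CPM) in WT, 2.10-fold lower (1.90 to 2.33). Serpina3b, a close copy of Serpina3a, had 21 counts in Alkbh1-/- and 42 in WT, 2.54-fold lower (1.47 to 4.52). These 2 were the whole of the measured family, since 15 of 17 matched relatives were below the floor. Serpina3c, with 31 counts in Alkbh1-/- and 16 in WT, lay on the other side (ratio 1.52, interval 0.809 to 2.98). Reads may be divided among Serpina3 copies, so values of single copies are uncertain.

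The glycogen-targeting subunit Ppp1r3e had 49 counts (4.74 CPM) in Alkbh1-/- and 96 counts (11.8 CPM) in WT, 2.49-fold lower (1.75 to 3.59), and it was the only measured relative of Ppp1r3c. Sfxn1, a mitochondrial serine transporter and relative of Sfxn3, had 42 counts (4.06 CPM) in Alkbh1-/- and 73 counts (8.97 CPM) in WT, 2.21-fold lower (1.49 to 3.31). Sfxn2 had 47 counts in Alkbh1-/- and 56 in WT, 1.51-fold lower (1.01 to 2.28). Sfxn4 and Sfxn5 were below the floor. The calls of Ppp1r3e and Sfxn1 were both lost with a pseudocount of 5 CPM in the ratio and at a floor of 20 CPM. At a floor of 1 CPM, 1 relative of Ppp1r3c was at least 2-fold lower and 2 were higher.

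Sorting nexins were the best measured family, with 23 of 29 relatives of Snx33 past the floor. Of these 23, 2 (8.70%) were at least 2-fold lower and 0 higher, beside 3.69% and 2.63% of all genes, with a median log2 difference of -0.07. Both calls were lost with a pseudocount of 1 or 5 CPM in the ratio and at a floor of 20 CPM. Snx7 had 61 counts in Alkbh1-/- and 103 in WT, a ratio of 0.466 (0.334 to 0.646), and Snx21 had 55 in Alkbh1-/- and 90 in WT, 2.08-fold lower (1.47 to 2.96). The SH3 and BAR domain relatives closest to Snx33 are Snx9 and Snx18. Snx9 had 217 counts in Alkbh1-/- and 171 in WT, a ratio of 0.999 (0.813 to 1.23). Snx18 had 88 counts in Alkbh1-/- and 119 in WT, 1.72-fold lower (1.29 to 2.29). The 3 genes of this subfamily therefore had different ratios, of which that of Snx33 was picked for its size.

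The relatives with higher values in Alkbh1-/- were of the Pla2g4 and Chst families. Pla2g4d, the only measured relative of Pla2g4a, had 98 counts (9.48 CPM) in Alkbh1-/- and 26 counts (3.20 CPM) in WT, a ratio of 2.97 (1.91 to 4.76). Chst8, a GalNAc sulfotransferase that sulfates sugars of pituitary hormones, had 109 counts (10.5 CPM) in Alkbh1-/- and 20 counts (2.46 CPM) in WT, a ratio of 4.29 (2.65 to 7.30). Chst5 had 61 counts in Alkbh1-/- and 23 in WT, a ratio of 2.09 (1.27 to 3.53). Chst1 and Chst11, which sulfate keratan and chondroitin, had ratios of 0.935 (0.871 to 1.00) and 1.07 (0.842 to 1.36). All 5 relatives of Trpv1 and both matched relatives of Frmpd1 were below the floor, so neither family could be described beyond its picked gene. Trpv4 had 11 counts in Alkbh1-/- and 6 in WT, and Trpv2 had 11 in Alkbh1-/- and 1 in WT.

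**Figure D3:**
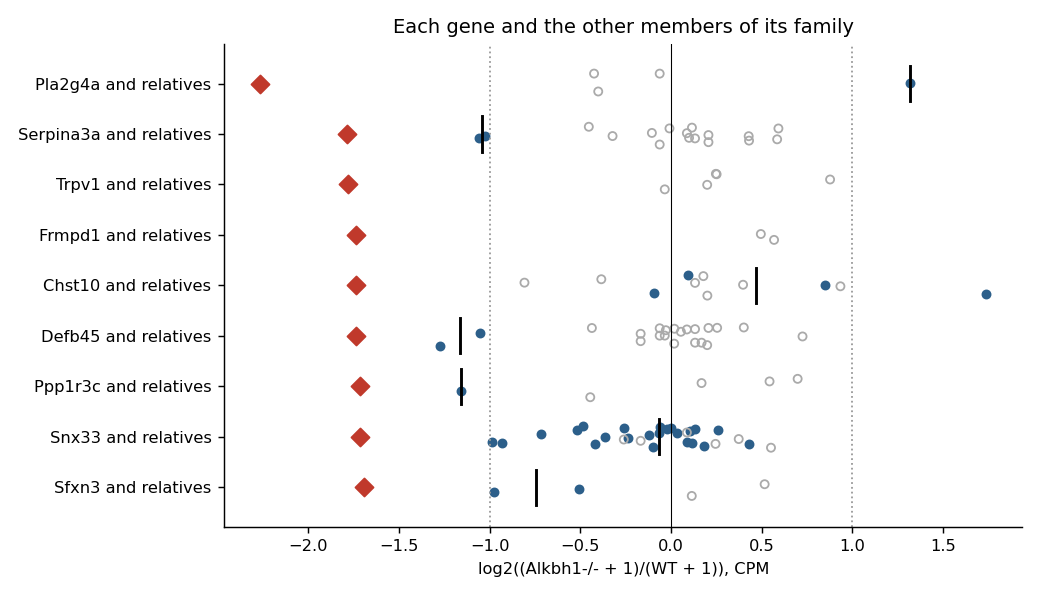
Log2((Alkbh1-/- + 1)/(WT + 1)) of CPM for each of the 9 genes (red diamonds) and its relatives, filled where past 5 CPM in at least 1 library and open where below, with the median of the filled points as a black line and 2-fold dotted. Measured relatives lay at -1.02 or below for Serpina3a and Defb45, on both sides of 0 for Snx33, and up to 1.74 for Chst10.

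In 7 lists of partners and pathway genes, 90 were measured, with a median log2 difference of -0.15. In Alkbh1-/- 2 of them (2.22%) were lower by 2-fold or more and 0 higher, shares close to the 3.69% and 2.63% of all genes. With a pseudocount of 1 or 5 CPM in the ratio, or a floor of 20 CPM, 0 were lower, and at a floor of 1 CPM 4 were lower and 4 higher. The 2 were Gnai1, an inhibitory G protein subunit of the Gpsm1 pathway (76 counts in Alkbh1-/-, 125 in WT), and Mthfd1l, a mitochondrial folate enzyme (69 in Alkbh1-/-, 113 in WT). Gpsm1 itself, to which Frmpd1 binds, had 137 counts in Alkbh1-/- and 189 in WT (log2 difference -0.77). All 7 measured genes of that list lay below 0, the highest at -0.02, beside 6352 of 12189 over all genes. Over the 7 lists together 62 genes lay below 0 and 28 above. The glycogen list had 10 below and 8 above, and the other TRP channels 3 below and 6 above. Of 9 measured eicosanoid genes, 0 passed 2-fold, with the prostaglandin receptor Ptger1 lowest at -0.90, Tbxas1 highest at 0.64 and the phospholipase Pla2g6 at -0.17. Of 18 measured glycogen genes, 0 passed 2-fold, with the phosphorylase Pygb lowest at -0.96 and Epm2a highest at 0.74. The phosphorylase kinase subunit Phkg2, the most counted, stood at 0.04. Of 25 measured endocytosis genes near Snx33, 0 passed 2-fold, with values from the clathrin light chain Cltb (-0.89) to Amph (0.87). Of these 25, 20 lay below 0 and 5 above. Of 16 measured one-carbon genes, Mthfd1l passed, and the serine synthesis enzymes Phgdh and Psat1 stood at -0.78 and -0.63. The highest of that list was Gcsh (0.45). Among 9 measured TRP channels outside the Trpv family, and among 6 genes around HNK-1 synthesis, 0 passed 2-fold, with Trpm4 at 0.30, Pkd2 at -0.61 and the galactosyltransferase B4galt1 at -0.17.

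Position on the chromosome was not used to pick the genes. The 3 nearest measured genes on each side of each gene, in the RefSeq order on GRCm38, made 54 adjacent genes. Lower by 2-fold or more in Alkbh1-/- were 9 of them (16.7%), and 0 were higher, beside 3.69% lower over all genes, while their median log2 difference was -0.03. Relatives already described, Serpina5, Serpina3b, Defb19 and Defb36, made up 4 of the 9. Among the 50 adjacent genes that are not relatives, 5 (10.0%) were lower, and all of these except Tbc1d8 reached the floor in WT only. Rgs2, a regulator of G protein signalling, had 43 counts in Alkbh1-/- and 94 in WT, a ratio of 0.360 (interval 0.245 to 0.522). Between it and Pla2g4a lay Brinp3, with a log2 difference of 0.66. Pdzd7, next to Sfxn3, had 28 counts in Alkbh1-/- and 64 in WT, a ratio of 0.344 (0.213 to 0.545). Tbc1d8, a Rab GTPase-activating protein gene close to Chst10, had 231 counts in Alkbh1-/- and 413 in WT, a ratio of 0.440 (0.373 to 0.518). Pdcl3, also beside Chst10, and Tomm5, beside Frmpd1, were 2.08-fold and 2.11-fold lower in Alkbh1-/-. No adjacent gene of Trpv1, Ppp1r3c or Snx33 passed 2-fold. The log2 differences of the adjacent genes ran from -0.19 (Emc6) to 0.74 (Rap1gap2) around Trpv1, from -0.72 (Tnks2) to 0.17 (Hectd2) around Ppp1r3c, and from -0.59 (Imp3) to 0.84 (Odf3l1) around Snx33.

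**Figure D4:**
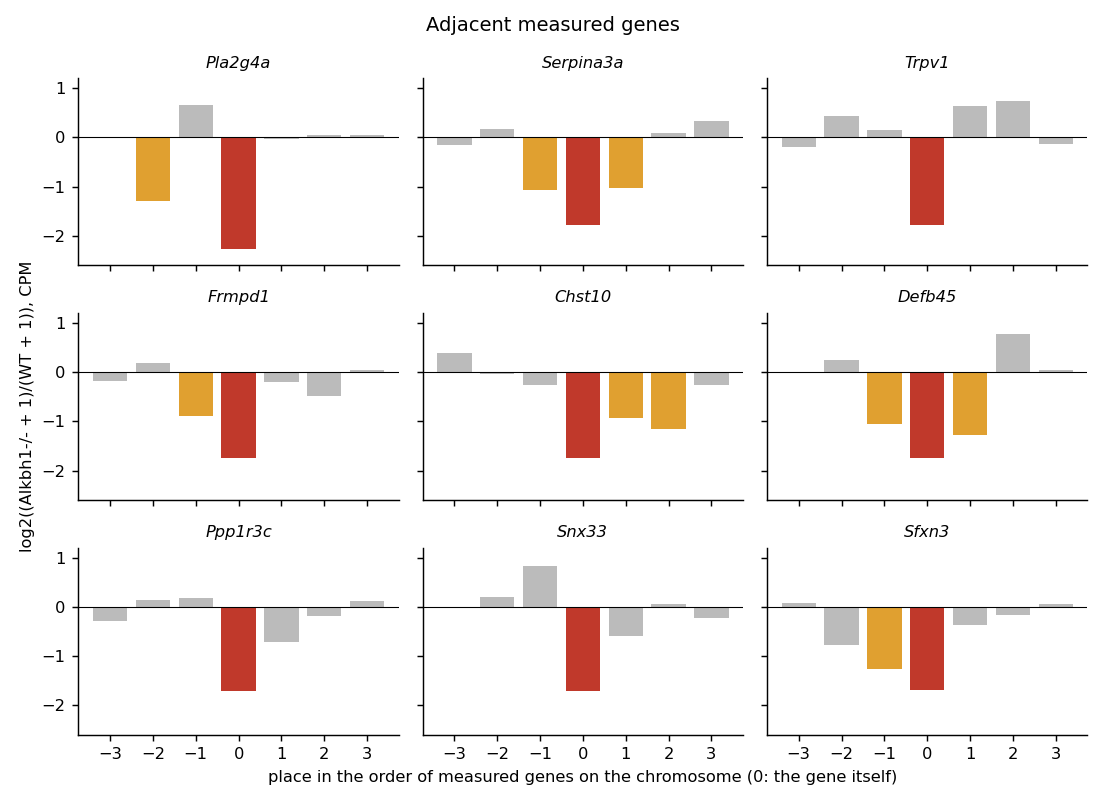
Log2((Alkbh1-/- + 1)/(WT + 1)) of CPM of each of the 9 genes (red, at 0) and the 3 nearest measured genes on each side, with adjacent genes at least 2-fold lower in yellow and others in grey. Defb45 and Serpina3a each have a yellow gene on both sides, while Trpv1, Ppp1r3c and Snx33 have none.

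The libraries also differed in markers of somatic testis cells. Sertoli cells, which enclose the germ cells in the tubule, can come along in a spermatocyte preparation. Among 26 measured Sertoli markers the median log2 difference was -1.12, and 18 passed 2-fold toward lower values in Alkbh1-/-, with 0 on the other side, beside 3.69% lower and 2.63% higher over all genes. The lowest were the transcription factor Sox9 (-1.73), Nr0b1 (-1.66), Aard (-1.39), the transcription factor Gata4 (-1.32), the inhibin subunit gene Inhbb (-1.31) and Gstm6 (-1.31). The 28 matched markers summed to 2470 CPM in Alkbh1-/- and 4970 CPM in WT, a ratio of 0.497. Clu alone gave 957 CPM of the sum in Alkbh1-/- and 1847 CPM in WT, so abundant genes weigh most in this ratio. None of the 26 was at 0 in either library, and Krt18, below the floor, had 1 count in Alkbh1-/- and 0 in WT. Whether the lower Sertoli markers account for any of the 9 genes was not tested.

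Beside these markers, the ratios of the 9 genes were low, as their choice fixes. They ran from 0.109 to 0.288, and those of the Sertoli markers from 0.286 for Sox9 to 1.05 for the junction gene Tjp1, with a median of 0.452. For all 9 the upper limit of the ratio lay below that median, which their choice favours, so it is a description and no test. On the log2 scale, Sox9 alone lay below Ppp1r3c, Snx33 and Sfxn3, and no Sertoli marker lay below the other 6. Divided by the ratio of the summed markers, the 9 ratios were between 0.219 for Pla2g4a and 0.579 for Snx33 and Sfxn3, a rescaling of the same picked values. The 8 lower relatives, from Serpina3b (ratio 0.393) to Snx21 (0.481), all lay nearer the Sertoli median than the genes picked. Any ratio not far below 0.5 does, so this singles out none of them.

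Markers of Leydig cells, which make testosterone between the tubules, had a median log2 difference of 0.55 over 13 genes. In Alkbh1-/- 4 of them passed 2-fold upward, namely the steroid enzymes Hsd3b6 (1.28), Cyp17a1 (1.11) and Hsd17b3 (0.92) and the sterol carrier Scp2 (1.17), and 1 passed downward. The lower one was Nr5a1, which the Sertoli list holds too. Of the higher ones, 1 stayed past 2-fold with a pseudocount of 5 CPM in the ratio, and Hsd17b3 and Scp2 reached the floor in Alkbh1-/- only. Their sums were 381 CPM in Alkbh1-/- and 362 CPM in WT. Peritubular myoid markers had a median of 0.53 over 7 genes, with Acta2, Fn1 and Myh11 higher and Myl9 lower by 2-fold or more. With a pseudocount of 5 CPM 0 myoid markers stayed higher, and 1 did at a floor of 20 CPM. The mannose receptor gene Mrc1 stood at -0.91, and of 12 macrophage and blood markers 11 were below the floor, so immune cells were hardly measured. The markers of the labelled cell type were present in both libraries. The late pachytene gene Ldhc had 43770 counts in Alkbh1-/- and 40013 in WT, not scaled for the larger Alkbh1-/- library total. Scaled, the 14 late pachytene markers summed to 12925 CPM in Alkbh1-/- and 13595 CPM in WT. Their median log2 difference was 0.00. Meiotic prophase markers had a median of 0.24 over 21 genes, with 1 at least 2-fold higher (Dmc1) and 0 lower, and spermatid markers 0.56 over 24 genes, with 3 higher (Catsper3, Catsper4, Sun5) and 0 lower. Spermatogonial markers had 2 lower (Itga6, Etv5) and 1 higher (Kit) of 10, with a median of 0.05, and 0 in either direction with a pseudocount of 5 CPM. Endothelial markers had 1 higher (Tek) and 0 lower of 4. Tek and Dmc1 reached the floor in Alkbh1-/- only. These small counts past 2-fold stand beside 3.69% lower and 2.63% higher over all genes. By sign alone, 21 of 24 spermatid markers lay above 0 and 3 below. Above 0 were also 15 of 21 meiotic prophase and 7 of 14 late pachytene markers, beside 5837 of 12189 over all genes. The part of these differences in the values of the 9 was not tested.

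**Figure D5:**
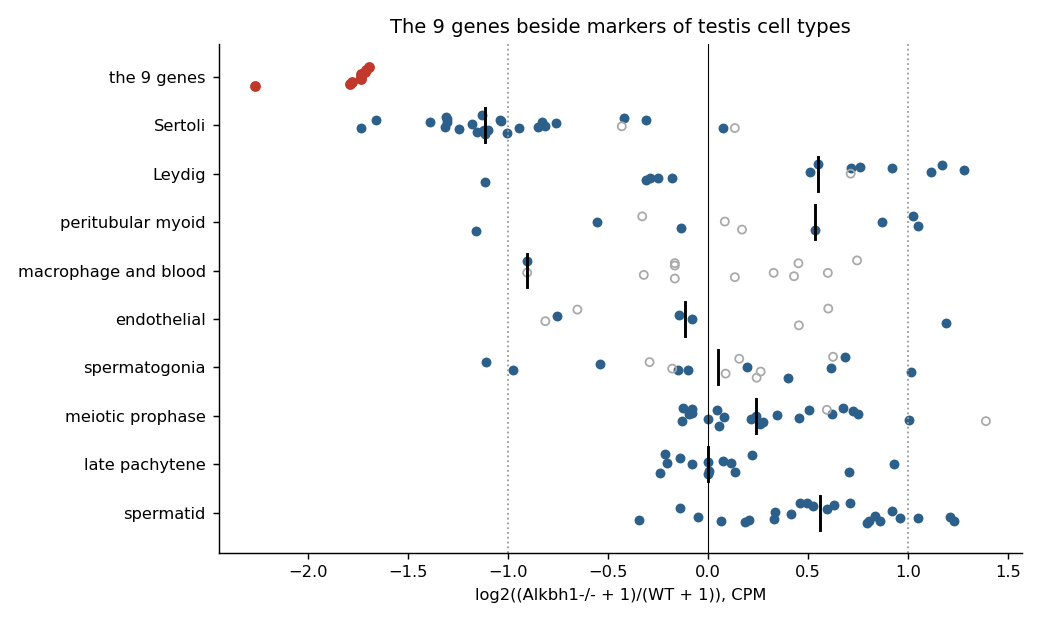
Log2((Alkbh1-/- + 1)/(WT + 1)) of CPM for the 9 genes (red) and for markers of testis cell types, filled where past the floor and open where below, with the median of the filled points as a black line and 2-fold dotted. The 9 lie between -2.26 and -1.69, and the Sertoli list (median -1.12) is the nearest of the lists with several measured genes, with Sox9 at -1.73 inside the range of the 9.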

How the data were processed

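Polyadenylated RNA over 200 nt from mouse pachytene spermatocytes was sequenced in 1 Alkbh1-/- and 1 WT library. The deposited table holds the authors' raw whole-number counts per Ensembl gene. Per the submitters' processing notes, CASAVA 1.3, Novoalign, TopHat, bedtools and the mm9 build were used, in roles they do not state. The counting tool and strand use were, for this table, not given in the sources used here, so overlapping genes and close copies cannot be separated. Symbols were matched to 19848 of 21310 identifiers (93.1%). Small RNA tables were not used, since their mm9 clusters carry no gene names.

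Counts were scaled to CPM by trimmed mean of M values (factors 1.01 for Alkbh1-/- and 0.989 for WT). A gene was measured at 5 CPM in either library and counted at a CPM ratio of 2 or 0.5, and log2 values used a pseudocount of 1 CPM. Intervals are exact 95% (Poisson for counts, Clopper-Pearson for ratios). No test was made with 1 library per genotype. Ratios and intervals were tested on simulated Poisson counts, without PCR copies or variation between animals, so that says nothing about those errors. The genes, lists and motifs were chosen with earlier results of these data known. Genes named were the 9, list and adjacent genes past 2-fold, the nearest 2 genes to each, and the 20 lowest genes. For some lists without genes past 2-fold, genes among the 3 most counted were named. Cltb, Amph, Ptger1, Tbxas1, Pygb, Epm2a, Gpsm1, Phgdh, Psat1, Gcsh, Clu, Tjp1, Krt18, Sfxn2, Snx9, Snx18, Serpina3c, Defb30, Defb23, Chst1, Chst11, Sfxn4, Sfxn5 and the adjacent genes within 2-fold were named after their values were seen. Alternatives covered the pseudocount, scaling and floor. Python 3.11.15, numpy 2.4.6, pandas 2.3.3 and scipy 1.17.1 were used.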

Additional observations from a re-analysis of the deposited data

How the results depend on the processing

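No paired analysis was possible because each genotype had 1 mRNA library. All 36 log2 values of the 9 genes under the other pseudocounts and scalings stayed below 0. At a pseudocount of 5 CPM they ended between -1.555 (Serpina3a) and -0.95 (Ppp1r3c), so Ppp1r3c lost its 2-fold call and 8 of the 9 kept it. Pla2g4a stood at -1.15, Trpv1 at -1.17, and Chst10 and Defb45 at -1.003 there. Scaling shifted the median of all genes by 0.03 at most. Counts over all genes depended on the floor and the pseudocount. They were 135 lower and 50 higher at a pseudocount of 5 CPM, 230 lower and 96 higher at a floor of 20 CPM, 742 lower and 932 higher at 1 CPM, and 1948 lower and 3052 higher with no floor. Relatives of the 9 numbered 3 lower and 1 higher at a pseudocount of 5 CPM, 3 lower and 0 higher at a floor of 20 CPM, and 16 lower and 22 higher with no floor. They were 5 lower with a pseudocount of 1 CPM in the ratio, an alternative chosen after seeing the data, and 10 were higher at a floor of 1 CPM. With no floor, 1 Sertoli marker, Krt18, was higher, on 1 count. At a floor of 20 CPM, 4 of the 9 passed it. Higher Leydig markers numbered 1 at a pseudocount of 5 CPM and 1 at a floor of 20 CPM. Low depth limits Pla2g4a, Ppp1r3c, Chst10 and Defb45 most.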
